A study of Homo sapiens with 12 samples.

Results

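The nuclear-encoded subunits of the respiratory chain and ATP synthase were followed in lung-metastatic breast cancer cells with and without a knockdown of ACSL5, a long-chain acyl-CoA synthetase that activates fatty acids. Genes were taken by symbol from the count table (NDUFA, NDUFB, NDUFC, NDUFS and NDUFV numbers, SDHA to SDHD, UQCR names, CYC1, COX4 to COX8 followed by A, B or C, and ATP5 names). Of 162 rows that fit these patterns, 78 with pseudogene names and 1 with a read-through name were left out, so 83 of the 57730 rows were members. They comprise 36 genes placed in complex I, 4 in complex II, 9 in complex III, 16 in complex IV and 18 in complex V. NDUFA4 was placed in complex IV, where its protein is now assigned. DMAC2 and DMAC2L match by older names (ATP5SL and ATP5S) but encode accessory factors, not subunits.

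Poly(A) RNA was sequenced from LM3 cells, which descend from the triple-negative human breast line MDA-MB-231 by selection for spread to the lung, with 3 libraries in each of 4 groups. The groups with a hairpin against ACSL5 were shACSL5+PA, with palmitic acid, and shACSL5, without it. Those with a control hairpin were shControl+PA, with palmitic acid, and shControl, without it. All 4 groups therefore carry a hairpin construct, and palmitic acid (PA) is a saturated long-chain fatty acid. The labels used here give only the name shACSL5, so the number of hairpins against ACSL5 is not known from them. They say neither how many clones were used nor the dose, time and carrier of palmitic acid. An effect of the carrier cannot be told apart from that of the fatty acid. Likewise, a direct effect of the hairpin on other genes cannot be told apart from that of less ACSL5. The libraries of a group are not said to come from separate cultures, so that every p-value below speaks of the scatter among these libraries, which may be technical.

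As background, complex I (NADH dehydrogenase) and complex II (succinate dehydrogenase) pass electrons to ubiquinone. Complex III hands them to cytochrome c, complex IV (cytochrome c oxidase) reduces oxygen, and complex V (ATP synthase) uses the proton gradient to make ATP. Most subunits are encoded in the nucleus and imported, and the rest come from mitochondrial DNA. Oxidation of fatty acids feeds this chain through NADH and the electron-transferring flavoprotein. The nuclear subunit genes are known to share promoter sites for NRF1, GABPA (also called NRF2), YY1 and CREB.

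Stretches upstream of 3 members are shown because COX5A had the largest fall of the members, ATP5MC1 the largest rise, and COX5B is another nuclear subunit of complex IV. Capitals mark a match to 1 of 4 motifs read on both strands: GCATGCG for NRF1, CCGGAAG for GABPA, AAGATGG for YY1 and TGACGTC for CREB. Sequences are from RefSeq (GRCh38.p14), run 5′ to 3′ on the strand of the gene, and end at the last base before the gene as GENCODE 29 places it.
COX5A (chr15:74938169-74938323, minus strand): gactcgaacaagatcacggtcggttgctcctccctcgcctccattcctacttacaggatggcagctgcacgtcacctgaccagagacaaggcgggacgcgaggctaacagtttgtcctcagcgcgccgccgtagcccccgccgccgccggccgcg
COX5B (chr2:97645812-97646039, plus strand): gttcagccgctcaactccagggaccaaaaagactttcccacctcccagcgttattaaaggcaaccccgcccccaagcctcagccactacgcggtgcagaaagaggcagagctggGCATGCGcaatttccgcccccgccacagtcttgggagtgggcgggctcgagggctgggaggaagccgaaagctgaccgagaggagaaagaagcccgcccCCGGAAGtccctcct
ATP5MC1 (chr17:48892537-48892764, plus strand): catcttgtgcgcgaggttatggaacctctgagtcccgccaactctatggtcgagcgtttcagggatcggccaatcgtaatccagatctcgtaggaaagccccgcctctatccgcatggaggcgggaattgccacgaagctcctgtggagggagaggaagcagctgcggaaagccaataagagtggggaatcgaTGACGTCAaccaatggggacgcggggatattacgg
COX5B held an NRF1 match that begins 136 bases before the RefSeq start and a GABPA match that begins 37 bases before it. ATP5MC1 held overlapping CREB matches on the 2 strands, 57 and 56 bases before the start. COX5A held none of the 4 in its window, which says only that these letters are not there. RefSeq windows of 250 bases before to 50 bases after a start were found for 62 members, 74 windows in all. An NRF1 match was in 18.9% of member windows, against 3.91% of all 35116 windows. The shares were 24.3% against 10.3% for GABPA, 23.0% against 5.84% for YY1 and 8.11% against 3.45% for CREB. At least 1 of the 4 was in 54.1% of member windows and in 20.8% of all windows. Letter matches are a description and show no binding.

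Library totals ran from 16788694 to 21814751 counts, and levels are given as CPM, the counts scaled by library total and TMM factor. ACSL5 itself stood at 13.3 to 17.6 CPM in shACSL5+PA libraries and 189 to 194 CPM in shControl+PA libraries. It stood at 10.2 to 12.5 CPM in shACSL5 libraries and 142 to 145 CPM in shControl libraries, as the hairpin labels say. Markers of MDA-MB-231 were present (VIM at 2547 to 4030 CPM and CD44 at 318 to 377 CPM) and of the 7 luminal breast markers ESR1 (up to 0.439 CPM), PGR and TFF1 (up to 0.0549 CPM) were at or near 0. The luminal markers KRT19 (19.4 to 60.2 CPM), AGR2 (median 10.9 CPM), FOXA1 (6.22 to 7.9 CPM) and GATA3 (4.89 to 9.44 CPM) were present. Their summed level was 37.8 to 41.4 CPM in shACSL5+PA, 45.7 to 52.9 CPM in shACSL5, 70.7 to 76.1 CPM in shControl+PA and 85.3 to 92.7 CPM in shControl. Of the muscle markers, TNNT1 stood at 73.9 to 125 CPM, while MYH7 was at 0 in all 12 libraries. The summed immune markers stood at 45.2 to 54.0 CPM in shACSL5+PA, 47.7 to 53.2 CPM in shACSL5, 35.7 to 37.0 CPM in shControl+PA and 34.8 to 37.8 CPM in shControl, carried by CD68, with CD3E at 0. Summed MDA-MB-231 markers stood at 3262 to 3466 CPM in shACSL5+PA and 3355 to 3472 CPM in shACSL5. They stood at 4323 to 4471 CPM in shControl+PA and 4818 to 5001 CPM in shControl. The part of these shifts in the results below was not tested.

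Of the 83 members, 78 passed the filter on low counts and were tested. COX6A2, COX8C and ATP5MGL were at 0 in all 12 libraries, COX7A1 had 1 count and COX6B2 17 counts in all. These are isoforms known from heart, skeletal muscle or testis and a retrogene. All 13 mitochondrially encoded subunits were also at 0 in every library, so a level for them is not given by these files. The rows labelled NDUFA7, NDUFB8, SDHD and UQCR11 carry Ensembl identifiers that GENCODE 29 gives to read-through loci. Exons of other genes, the named gene and a neighbour among them, cover 91.21% to 100% of each locus's exons. The values of these rows are therefore uncertain, and they are called rows below. Among tested members, 21 overlap another gene or share 50-base words with other transcripts over more than 20% of their exons. Besides these rows, those given with values below are NDUFB11, NDUFS3, NDUFS7, NDUFV1, NDUFV2, UQCRQ, COX6A1, COX8A, ATP5F1E, ATP5MF, ATP5PF, ATP5PO and DMAC2L. For ATP5PO a gene on the same strand overlaps 70.28% of the exons. COX5A is not among the 21, with no overlapping gene and 0.73% of its words shared.

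With the knockdown in untreated cells, most members rose a little and a single subunit of complex IV fell far. COX5A fell to 32.0 ± 2.23 CPM in shACSL5, against 97.9 ± 3.41 CPM in shControl (SD, n = 3 each), so that 32.6% was left. Of 78 members, 47 rose, 6 fell and 25 were not called at an adjusted p of 0.05. Over all 14706 genes tested, 29.7% were called higher and 32.6% lower. The members' median log2 change was 0.21, beside -0.02 over all genes. The changes were small: only COX5A and ATP5MC1 of the members were called with a change of at least 1.5-fold, where 23.7% of all genes were. Adjusted p-values are from edgeR's quasi-likelihood test, adjusted over all genes tested.

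With palmitate in both groups, 38 members rose, 5 fell and 35 were not called. All genes were called higher in 24.4% and lower in 26.1%, and the medians were 0.13 for members and -0.00 for all genes. COX5A alone among members was called with at least 1.5-fold, where 12.6% of all genes were. This comparison shares no library with that in untreated cells. Of members called in either, 40 were called in both, which is 75.5% of the first comparison's calls and 93.0% of the second's, with 35 higher in both, 5 lower in both and 0 in opposite directions. Over all genes the same shares were 70.8% and 87.4%, with 52 in opposite directions. In untreated cells the libraries of the groups lay apart for 52 of the 53 called members, and 45 were called in every alternative tried. Under palmitate they lay apart for 41 of 43, and 33 were called in every alternative. The same counts over all called genes were not taken, so these counts describe single calls and do not set the members apart. The 5 that fell in both were COX5A, UQCRB, NDUFS4, NDUFA5 and NDUFS1.

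**Figure D1:**
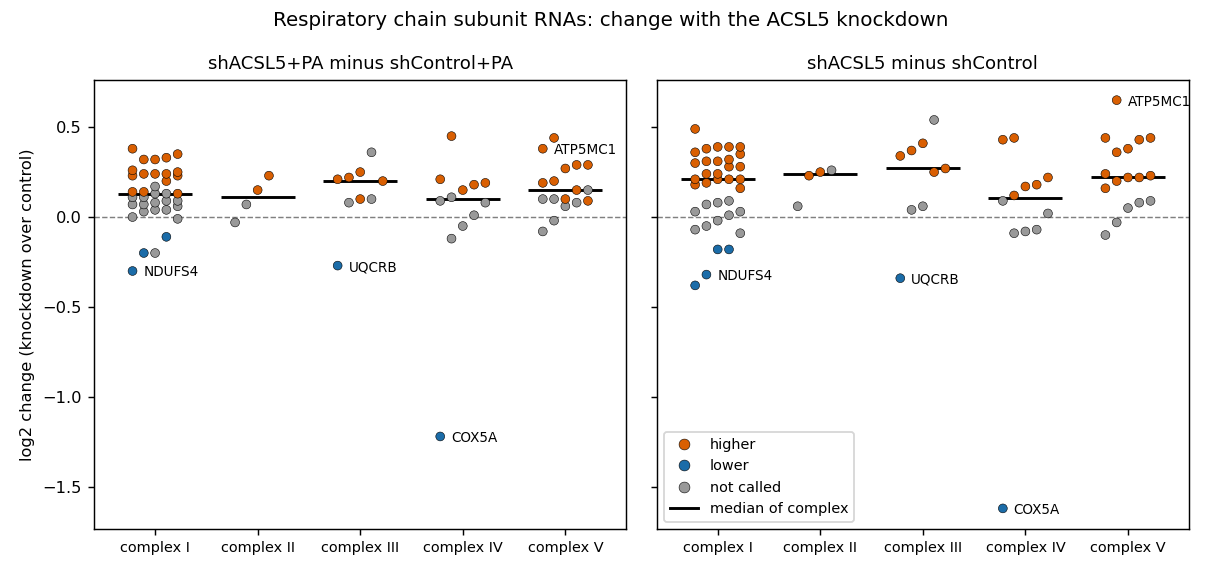
Log2 change of each of the 78 tested members, by complex, for shACSL5+PA over shControl+PA (left) and shACSL5 over shControl (right); points are genes, orange called higher, blue called lower, grey not called, and bars are the median of each complex. Most points lie between -0.4 and 0.65, and COX5A lies apart at -1.22 and -1.62.

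Complex I, the entry point for NADH, had 22 of 36 members higher and 4 lower with the knockdown in untreated cells (median log2 0.21), and 16 higher and 3 lower under palmitate (median 0.13). Over all genes 29.7% were called higher and 32.6% lower in untreated cells, and 24.4% and 26.1% under palmitate. The counts for parts of complex I stand beside the same shares. Among its 7 catalytic core subunits 5 rose and NDUFS1 fell in untreated cells. The calls for NDUFS7 and NDUFS8 ended without shACSL5 replicate 3 (adjusted p up to 0.0788 and 0.117 over the alternatives). The NDUFS8 call also ended without shControl replicate 3. Under palmitate 2 of the 7 rose (28.6%) and 1 fell, so the rises there are near the share of all genes. NDUFS3 rose most of the core subunits in untreated cells, by 0.39 (SE 0.05, adjusted p = 3.4e-07). Its levels were 71.7, 71.4 and 68.0 CPM in shACSL5, against 52.5, 53.1 and 55.4 CPM in shControl. All shACSL5 libraries lay above all shControl libraries. The flavin-binding NDUFV1 rose by 0.21 (SE 0.05) and its neighbour NDUFV2 by 0.18 (SE 0.04). The iron-sulfur subunit NDUFS1 had 190, 202 and 185 CPM in shACSL5, against 215, 214 and 225 CPM in shControl. Its fall of 0.18 (SE 0.04) was called, and under palmitate it was -0.11 (SE 0.04, adjusted p = 0.0241). That second call ended with upper quartile scaling and when shControl+PA replicate 2, shControl+PA replicate 3 or shACSL5+PA replicate 3 was left out, with an adjusted p of up to 0.108 over the alternatives.

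Among the 29 supernumerary subunits of complex I, which surround the core, 17 rose and 3 fell in untreated cells, and 14 rose and 2 fell under palmitate. The largest rise was NDUFS5, with 135, 135 and 137 CPM in shACSL5 and 95.4, 97.4 and 95.9 CPM in shControl (log2 0.49, SE 0.05, adjusted p = 9.15e-09). Under palmitate NDUFS5 had 152, 133 and 138 CPM in shACSL5+PA and 111, 106 and 121 CPM in shControl+PA. The groups did not overlap in either pair. NDUFB11 rose by 0.39 (SE 0.07) and NDUFA2 by 0.38 (SE 0.06) in untreated cells, and by 0.38 (SE 0.07) and 0.35 (SE 0.06) under palmitate. NDUFB11 overlaps RBM10 on the opposite strand over 44.85% of its exons, and the strand setting of the counting is not given in the sources used here.

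NDUFS4 (ENSG00000164258, GRCh38 chromosome 5, 53560633 to 53683340, plus strand) encodes an accessory subunit whose loss in humans and mice causes a Leigh-like disease, and it fell. It stood at 30.2, 31.0 and 34.3 CPM in shACSL5, against 37.3, 41.5 and 40.5 CPM in shControl (log2 -0.32, SE 0.07, adjusted p = 0.000328). Under palmitate it stood at 30.6, 33.0 and 31.4 CPM in shACSL5+PA and 41.0, 35.8 and 40.0 CPM in shControl+PA (log2 -0.30, SE 0.07). The groups stayed apart in both pairs. NDUFA5, of the matrix arm, fell by 0.18 (SE 0.05) in untreated cells and by 0.20 (SE 0.05) under palmitate. The row labelled NDUFA7 had 11.9, 13.9 and 14.1 CPM in shACSL5 and 17.1, 17.3 and 17.3 CPM in shControl, a called fall of 0.38 (SE 0.09), and under palmitate -0.20 (SE 0.09, adjusted p = 0.0642). It is the read-through row and does not separate NDUFA7 from its neighbour CD320.

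Complex II, which also belongs to the citric acid cycle, had 2 of its 4 members higher and none lower in both comparisons (median 0.24 in untreated cells and 0.11 under palmitate). All genes were called higher in 29.7% and lower in 32.6% in untreated cells, and in 24.4% and 26.1% under palmitate. With 4 members, such counts are no result about the complex. SDHC, a membrane anchor, had 88.9, 91.3 and 85.1 CPM in shACSL5 and 72.5, 75.0 and 76.1 CPM in shControl (log2 0.25, SE 0.05, adjusted p = 0.000151). The iron-sulfur subunit SDHB rose by 0.23 (SE 0.05). The flavoprotein SDHA, at 178 ± 3.62 CPM in shACSL5 and 171 ± 3.32 CPM in shControl (SD, n = 3 each), had a log2 change of 0.06 (SE 0.03) and was not called. Under palmitate SDHC rose by 0.23 (SE 0.05) and SDHB by 0.15 (SE 0.04). The row labelled SDHD stood at 0.26 (SE 0.12) and -0.03 (SE 0.12).

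Complex III had 5 of 9 members higher and 1 lower in each comparison (median 0.27 in untreated cells and 0.20 under palmitate). Beside this, 29.7% of all genes were higher and 32.6% lower in untreated cells, and 24.4% and 26.1% under palmitate. CYC1, which encodes cytochrome c1, had 249, 244 and 247 CPM in shACSL5 and 178, 188 and 189 CPM in shControl (log2 0.41, SE 0.04, adjusted p = 1.13e-09). With palmitate it had 220, 224 and 236 CPM in shACSL5+PA and 195, 204 and 192 CPM in shControl+PA (log2 0.20, SE 0.04). The groups did not overlap in either pair. UQCRFS1, the Rieske iron-sulfur protein, rose by 0.25 (SE 0.05) in untreated cells and stood at 0.10 (SE 0.05, adjusted p = 0.102) under palmitate. The structural core proteins UQCRC1 and UQCRC2 stood at 0.04 (SE 0.04) and 0.06 (SE 0.04) in untreated cells. Neither was called there, and under palmitate UQCRC2 rose by 0.10 (SE 0.04). That call was lost with no filter on low counts. It was also lost without any 1 of shControl+PA replicates 2 and 3 and the 3 shACSL5+PA replicates. The adjusted p was up to 0.191 over the alternatives. The small subunits UQCRQ and UQCR10 rose by 0.37 (SE 0.05) and 0.34 (SE 0.06) in untreated cells and by 0.25 (SE 0.05) and 0.22 (SE 0.06) under palmitate.

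UQCRB (ENSG00000156467, GRCh38 chromosome 8, 96225920 to 96235634, minus strand) encodes a small subunit near the quinone site of complex III, and it fell in both comparisons. It had 168, 172 and 162 CPM in shACSL5, against 222, 213 and 203 CPM in shControl (log2 -0.34, SE 0.04, adjusted p = 1.19e-07). Under palmitate it had 184, 169 and 173 CPM in shACSL5+PA and 207, 212 and 218 CPM in shControl+PA (log2 -0.27, SE 0.04, adjusted p = 5.75e-06). Every shACSL5 library was below every shControl library in both pairs. In the untreated pair 78.8% of the RNA was left, and 82.7% in the palmitate pair.

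**Figure D2:**
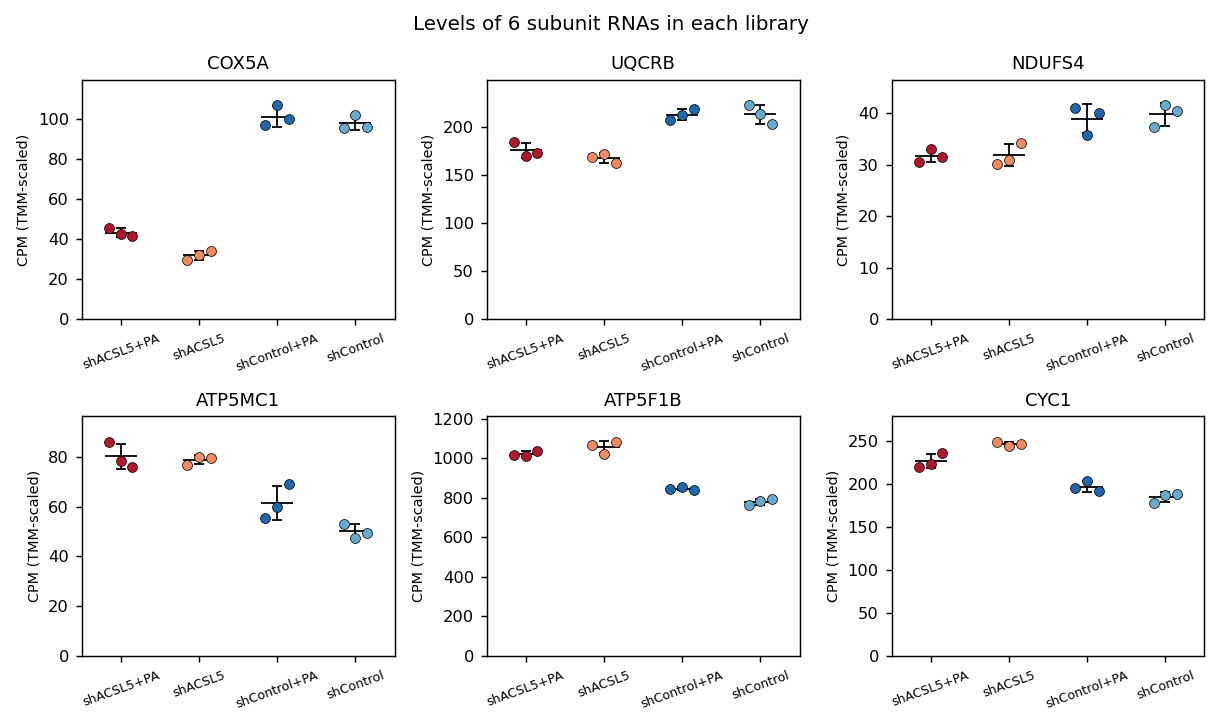
TMM-scaled CPM of 6 members in each library for shACSL5+PA, shACSL5, shControl+PA and shControl; points are libraries, and bars are the mean and SD of 3. COX5A, UQCRB and NDUFS4 are lower in the shACSL5 libraries than in the matching shControl libraries, and ATP5MC1, ATP5F1B and CYC1 higher.

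Complex IV, the oxygen-reducing enzyme, had 6 of 12 tested members higher and 1 lower in untreated cells, and 5 higher and 1 lower under palmitate (median 0.10 in both). Shares over all genes were 29.7% higher and 32.6% lower in untreated cells, and 24.4% and 26.1% under palmitate. COX5A (ENSG00000178741, GRCh38 chromosome 15, 74919791 to 74938168, minus strand, protein-coding) encodes a matrix-side subunit that joins the enzyme early in assembly. It had 29.6, 32.3 and 34.0 CPM in shACSL5, against 95.8, 102 and 96.2 CPM in shControl (log2 -1.62, SE 0.06, adjusted p = 2.33e-16). Under palmitate it had 45.9, 42.8 and 41.5 CPM in shACSL5+PA, against 97.1, 107 and 100 CPM in shControl+PA (log2 -1.22, SE 0.06, adjusted p = 4.49e-14), and 42.8% was left. The 2 groups of each pair lay far apart, and a 2-sided exact permutation test gave p = 0.1 in each, the smallest it can give with 3 against 3. A lower level in every cell and a loss in some of the cells cannot be told apart in bulk RNA. Nor can a direct effect of the hairpin on COX5A be told apart from one of less ACSL5. COX5A made up 2.51% ± 0.131 of the summed CPM of complex IV members in shACSL5 and 7.78% ± 0.146 in shControl (SD, n = 3 each). That sum leaves out COX4I1, which the name patterns miss. Per kilobase of its principal GENCODE 29 transcript, its level ranked 12 of 12 complex IV members in shACSL5 and 8 of 12 in shControl, an order that depends on the annotated transcript lengths.

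Of the other 11 tested complex IV members, 6 rose and 5 were not called in untreated cells. COX5B, a zinc-binding neighbour, had 83.5, 87.3 and 83.8 CPM in shACSL5 and 71.6, 76.6 and 70.7 CPM in shControl (log2 0.22, SE 0.04). The groups did not overlap, and under palmitate its change was 0.08 (SE 0.04, adjusted p = 0.122). COX6C stood at -0.08 (SE 0.04) and COX7C at -0.09 (SE 0.05), neither called. Of the isoform pairs, COX6A1 rose by 0.12 (SE 0.04), COX8A by 0.18 (SE 0.05) and COX7B by 0.17 (SE 0.06), while COX6B1 stood at 0.02 (SE 0.06) and COX7A2 at 0.09 (SE 0.04). The libraries overlapped for COX7B. The COX6A1 call ended without shACSL5 replicate 3 (adjusted p = 0.0527), and the COX7B call without shControl replicate 3 or shACSL5 replicate 3 (adjusted p up to 0.0838). COX7B2, an isoform known from testis, had 37.9, 38.4 and 37.3 CPM in shACSL5 and 24.1, 32.1 and 27.6 CPM in shControl (log2 0.44, SE 0.08, adjusted p = 5.01e-05), and rose by 0.45 (SE 0.08) under palmitate. COX7A2L, which tethers complexes III and IV in supercomplexes, had 97.0, 103 and 92.5 CPM in shACSL5 and 72.0, 74.8 and 70.5 CPM in shControl (log2 0.43, SE 0.05). Neither gene's groups overlapped in untreated cells. COX4I1, which the name patterns leave out, rose by 0.10, at 336 CPM in shACSL5 and 314 CPM in shControl.

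Complex V, the ATP synthase, had 12 of 17 tested members higher and 0 lower in untreated cells (median 0.22), and 10 higher and 0 lower under palmitate (median 0.15). For all genes the shares were 29.7% higher and 32.6% lower in untreated cells, and 24.4% and 26.1% under palmitate. The catalytic beta chain is encoded by ATP5F1B (ENSG00000110955, GRCh38 chromosome 12, 56638175 to 56646068, minus strand). It had 1068, 1020 and 1081 CPM in shACSL5, against 763, 783 and 794 CPM in shControl (log2 0.44, SE 0.03, adjusted p = 1.01e-12). The alpha chain ATP5F1A had 491, 496 and 505 CPM in shACSL5 and 468, 482 and 494 CPM in shControl (log2 0.05, SE 0.03, adjusted p = 0.149), and the gamma chain ATP5F1C stood at 0.08 (SE 0.03, adjusted p = 0.0535). The beta groups lay apart while the alpha groups overlapped. Under palmitate ATP5F1B rose by 0.27 (SE 0.03) and ATP5F1C by 0.10 (SE 0.03), and ATP5F1A stood at 0.06 (SE 0.03). The ATP5F1C call ended without shControl+PA replicate 1 or shACSL5+PA replicate 1 (adjusted p up to 0.0715). In the peripheral stalk ATP5PB rose by 0.22 (SE 0.03), ATP5PF by 0.23 (SE 0.06) and ATP5PO by 0.16 (SE 0.05), while ATP5PD stood at -0.10 (SE 0.05). The small F1 subunits ATP5F1D and ATP5F1E rose by 0.22 (SE 0.06) and 0.24 (SE 0.06). The ATP5PO call ended without shControl replicate 1 (adjusted p = 0.0876), and ATP5MF of the membrane sector rose by 0.38 (SE 0.08) in untreated cells and 0.44 (SE 0.08) under palmitate.

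The proton-carrying c ring is encoded by 3 genes whose mature protein is the same. ATP5MC1 (ENSG00000159199, GRCh38 chromosome 17, 48892765 to 48895871, plus strand) had 76.8, 80.0 and 79.6 CPM in shACSL5, against 53.2, 47.4 and 49.6 CPM in shControl (log2 0.65, SE 0.07, adjusted p = 1.02e-08). ATP5MC2 had 149, 151 and 147 CPM in shACSL5 and 118, 112 and 117 CPM in shControl (log2 0.36, SE 0.04, adjusted p = 2.14e-08). ATP5MC3 had 242, 243 and 242 CPM in shACSL5 and 229, 232 and 222 CPM in shControl (log2 0.09, SE 0.04, adjusted p = 0.0598). The first 2 were called and the third was not, although its libraries did not overlap either. Under palmitate the changes were 0.38 (SE 0.06), 0.15 (SE 0.04) and 0.08 (SE 0.04), with ATP5MC3 again not called. The 2 accessory factors placed here by name, DMAC2 (known for complex I assembly) and DMAC2L, rose by 0.43 (SE 0.06) and 0.44 (SE 0.09) in untreated cells. Subunits with other names, looked at after their values were seen, stood at 0.22 (SE 0.07) for ATP5MK and 0.22 (SE 0.08) for ATP5MJ in untreated cells. Under palmitate they stood at 0.21 (SE 0.07) for ATP5MK and -0.09 (SE 0.07, adjusted p = 0.307) for ATP5MJ. The inhibitor ATP5IF1, rose by 0.21 (SE 0.06) in untreated cells and 0.26 (SE 0.06) under palmitate.

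**Figure D3:**
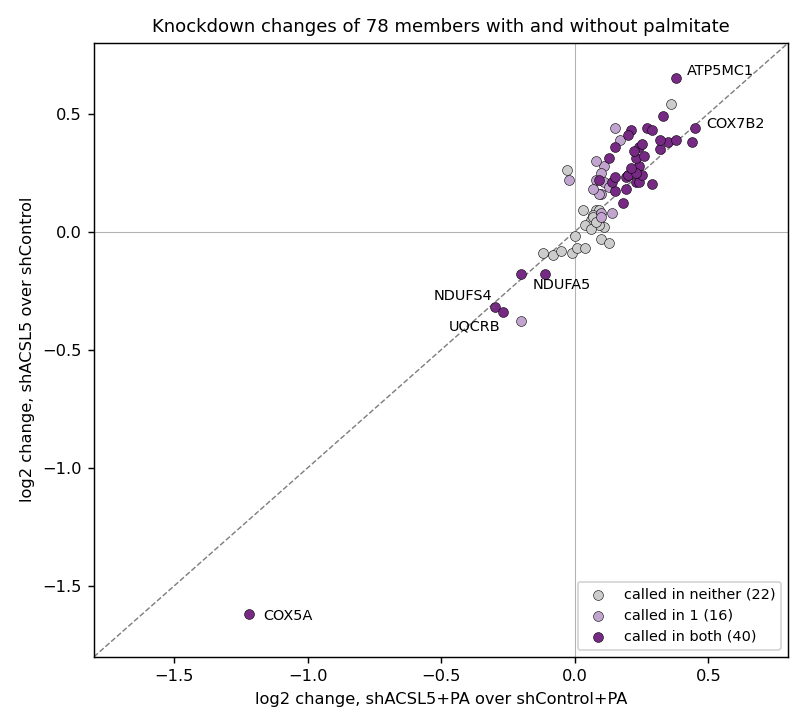
Log2 change of the 78 tested members for shACSL5+PA over shControl+PA (horizontal) and shACSL5 over shControl (vertical), with the line of equal change dashed; dark points were called in both comparisons (40), light purple in 1 (16) and grey in neither (22). COX5A lies at the lower left, and 72 of 78 members have the same sign in both, beside 12316 of all 14706 genes tested.

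Summed over its members, complex V gained most and complex IV least. Complex V stood at 3529, 3472 and 3546 CPM in shACSL5, against 2923, 2973 and 2980 CPM in shControl, a mean 18.8% higher. Complexes I, II and III stood 10.9%, 11.0% and 10.6% higher. In these 4 complexes the groups did not overlap. Complex IV stood at 1251, 1267 and 1300 CPM in shACSL5 and 1249, 1283 and 1245 CPM in shControl, 1.08% higher with overlapping libraries. Without COX5A, an alternative chosen after its fall was seen, the complex IV sum was 6.85% higher with no overlap, and under palmitate 6.74% higher with overlapping libraries. Without ATP5F1B, its most abundant RNA by count, complex V was 12.9% higher. Under palmitate the sums were 8.96%, 9.15%, 6.96%, 1.81% and 12.6% higher in shACSL5+PA than in shControl+PA for complexes I to V, and libraries overlapped for complex IV alone. The sums and the shares below hold members only, so complex IV lacks COX4I1 (336 CPM in shACSL5 and 314 CPM in shControl). Complex I lacks NDUFAB1, and complex V lacks ATP5MK and ATP5MJ but counts DMAC2 and DMAC2L, which are no subunits. Complex IV counts the supercomplex factor COX7A2L, at 97.4 CPM in shACSL5 and 72.4 CPM in shControl. Its rise in CPM exceeds that of the whole complex IV sum, with means of 1273 CPM in shACSL5 and 1259 CPM in shControl. These sums weigh abundant and long RNAs more and are no measure of the protein complexes.

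As a share of all members' CPM, complex V made up 39.2% ± 0.302 in shACSL5 and 37.0% ± 0.092 in shControl (SD, n = 3 each), and complex IV 14.2% ± 0.156 in shACSL5 and 15.8% ± 0.227 in shControl. The libraries of the groups lay apart for both shares, also under palmitate. There complex V made up 38.7% ± 0.342 in shACSL5+PA and 37.5% ± 0.107 in shControl+PA, and complex IV 14.6% ± 0.182 in shACSL5+PA and 15.6% ± 0.180 in shControl+PA. The shares of complexes II and III overlapped between knockdown and control libraries in both pairs.

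**Figure D4:**
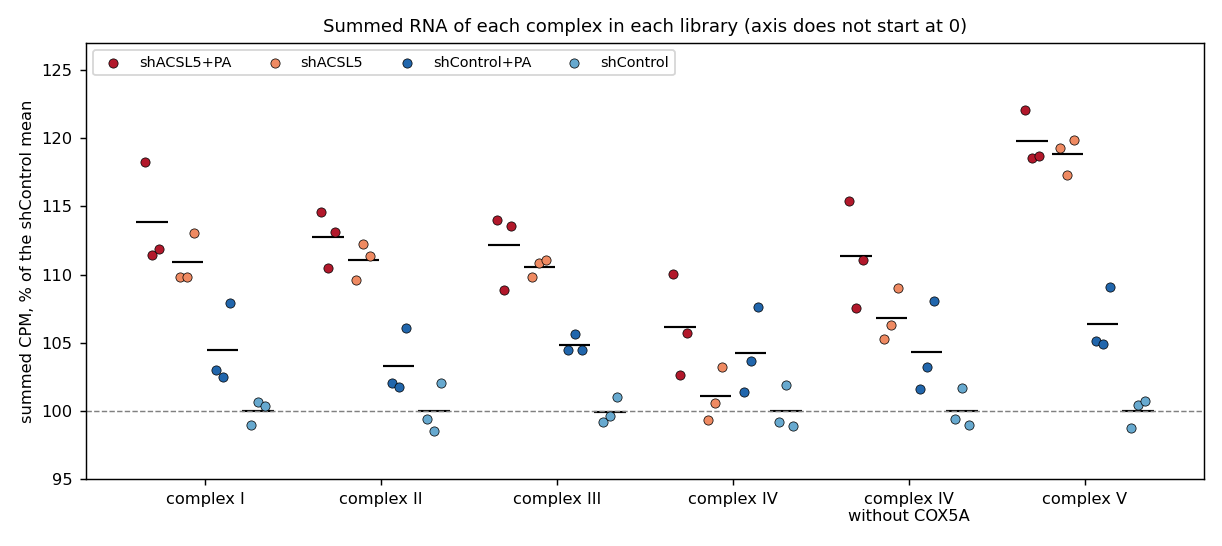
Summed CPM of each complex in each library as a percent of the shControl mean (axis from 95), in the order shACSL5+PA, shACSL5, shControl+PA, shControl; points are libraries and bars are means. Complex V is 18.8% higher in shACSL5 than in shControl, and complex IV 1.08% with COX5A and 6.85% without it. The sums hold members only, so complex IV leaves out COX4I1 and counts the supercomplex factor COX7A2L.

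Palmitate alone gave fewer calls than the knockdown, among all genes as among the members. Of 14706 genes, 9164 were called with the knockdown in untreated cells and 7432 under palmitate. With palmitate, 4217 were called in control cells and 3216 in knockdown cells. In control cells 20 of 78 rose and none fell, where 15.1% of all genes were called higher and 13.5% lower. The members' median was 0.08, beside -0.00 over all genes. ATP5MC1 had 55.6, 59.9 and 68.9 CPM in shControl+PA and 53.2, 47.4 and 49.6 CPM in shControl (log2 0.30, SE 0.07, adjusted p = 0.00185). UQCRH, the hinge protein of complex III, had 144, 140 and 152 CPM in shControl+PA and 126, 120 and 122 CPM in shControl (log2 0.25, SE 0.05). In both genes every treated library lay above every untreated one. COX7A2L rose by 0.24 (SE 0.05), NDUFS5 by 0.23 (SE 0.05), NDUFA9 by 0.21 (SE 0.05) and NDUFA8 by 0.19 (SE 0.05). By complex, 7 members rose in complex I, 1 in II, 3 in III, 3 in IV and 6 in V. COX5A stood at 0.05 (SE 0.05, adjusted p = 0.52). The count depends on scaling: with library sizes alone 9 members rose and 2 fell, and 35.9% of all called genes were higher, beside 52.8% with TMM. It was 12 without shControl replicate 1 and 12 without shControl+PA replicate 3.

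In knockdown cells palmitate raised 9 members and lowered 1, where 12.1% of all genes were called higher and 9.78% lower. Among members these shares were 11.5% and 1.28%. The count of rises is thus near the background and is no result about the members. COX5A rose most, with 45.9, 42.8 and 41.5 CPM in shACSL5+PA and 29.6, 32.3 and 34.0 CPM in shACSL5 (log2 0.44, SE 0.06, adjusted p = 1.75e-05). Its libraries did not overlap, and even so it stayed at 42.8% of the level in shControl+PA. The row labelled NDUFA7 rose by 0.34 (SE 0.09), UQCRH by 0.19 (SE 0.05), NDUFB3 by 0.19 (SE 0.06), SDHC by 0.16 (SE 0.05) and ATP5MG by 0.15 (SE 0.05). CYC1 fell, with 220, 224 and 236 CPM in shACSL5+PA and 249, 244 and 247 CPM in shACSL5 (log2 -0.12, SE 0.04, adjusted p = 0.0161). Only UQCRH, SDHC and COX7A2 were called with palmitate in both cell types, 3 of the 10 calls in knockdown cells and of the 20 in control cells. Over all genes, those called in both were 47.6% of the calls in knockdown cells and 36.3% of those in control cells, larger shares than among the members. COX5A alone of the 10 calls held under every alternative tried. The rises numbered 4 with library sizes alone and 4 with upper quartile scaling, with 2 falls in each, and 46.1% and 45.0% of all called genes were higher, beside 55.3% with TMM. They numbered 5 with these 2 groups fitted alone, 4 without shACSL5 replicate 1 and 2 without shACSL5+PA replicate 1.

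**Figure D5:**
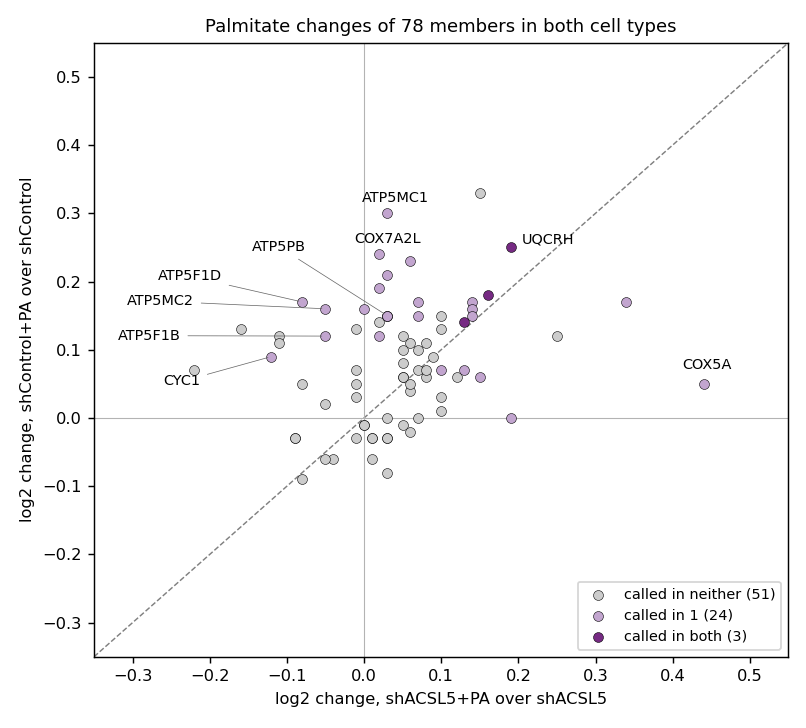
Log2 change of the 78 tested members with palmitate in knockdown cells (horizontal, shACSL5+PA over shACSL5) and in control cells (vertical, shControl+PA over shControl), with the line of equal change dashed; dark points were called in both (3), light purple in 1 (24) and grey in neither (51). COX5A lies right at 0.44 and 0.05, and CYC1 left at -0.12 and 0.09.

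The interaction is the palmitate response of knockdown cells minus that of control cells. It was called positive for COX5A and negative for 6 members. Over all genes 7.15% were called higher and 7.39% lower, beside 1.28% and 7.69% of members. The count of negative calls is thus near the background. COX5A had an interaction of 0.39 (SE 0.08, adjusted p = 0.0019). CYC1 had -0.21 (SE 0.05), with a palmitate response of -0.12 in knockdown cells and 0.09 in control cells. ATP5MC2 had -0.22 (SE 0.05) and ATP5F1B -0.17 (SE 0.04), and both rose with palmitate in control cells and were not called in knockdown cells. Calls for COX7A2L (-0.22, SE 0.06), ATP5F1D (-0.25, SE 0.08) and ATP5PB (-0.13, SE 0.04) were lost in at least 1 alternative. The count of negative calls was 3 without shControl replicate 3. With library sizes alone, 59.9% of all called interactions were positive, beside 49.2% with TMM.

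Assembly factors, which build the complexes and are no subunits, were read from fixed lists. In untreated cells with the knockdown, 13 of 18 complex I factors rose and 2 fell (median 0.41), and 16 of 24 complex IV factors rose and 0 fell (median 0.30). For complexes II, III and V the counts were 1 higher and 1 lower of 4, 4 and 1 of 6, and 5 and 1 of 6. The complex I factor NDUFAF3 rose by 0.65, and the complex IV factors COA4 and COX14 rose by 0.83 and 0.86. UQCC3 of complex III rose by 0.98, to 20.7 CPM in shACSL5, against 10.6 CPM in shControl. COA1 fell by 0.62 and ATPAF2, which binds the alpha chain of the F1 sector, fell by 0.68. Under palmitate 10 of 18 complex I factors rose and 2 fell, and 14 of 24 complex IV factors rose and 0 fell. Of all genes, 29.7% were called higher and 32.6% lower in untreated cells, and 24.4% and 26.1% under palmitate. The complex II counts are near these shares and are no result about that list.

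Among 17 genes of mobile electron carriers and ubiquinone synthesis, 6 rose and 2 fell in untreated cells, and 4 rose and 2 fell under palmitate. These counts stand beside 29.7% of all genes higher and 32.6% lower in untreated cells, and 24.4% and 26.1% under palmitate, and their shares of higher genes are near that background. Cytochrome c (CYCS) rose by 0.31, at 293 CPM in shACSL5 and 236 CPM in shControl. ETFDH, which passes electrons from fatty acid oxidation to ubiquinone, fell by 0.69, at 10.1 CPM in shACSL5 and 16.4 CPM in shControl, while its partners ETFA and ETFB rose by 0.21 and 0.24. With palmitate ETFDH rose by 0.59 in knockdown cells and stood at 0.19 in control cells. Its interaction of 0.39 was not called.

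Of 13 transcriptional regulators of respiratory genes, 5 rose and 3 fell with the knockdown in untreated cells (median -0.08), beside 29.7% of all genes higher and 32.6% lower, so that these counts are no result about the list. The coactivator PPRC1 rose by 0.52 and the nuclear receptor ESRRA by 0.45. NRF1 stood at -0.11, YY1 at 0.06 and TFAM at -0.08, none called, and GABPA fell by 0.20. PPARGC1A, the coactivator PGC-1 alpha, fell by 0.49, at 4.77 CPM in shACSL5 and 6.71 CPM in shControl, and under palmitate stood at -0.01. The mitochondrial transcription factors TFB1M and TFB2M moved oppositely, by -0.58 and 0.72.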

How the data were processed

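RNA was sequenced in 12 poly(A) libraries of 4 groups with 3 libraries each, grouped by their labels. The table that the authors deposited holds unnormalised counts of reads for each gene. The build GRCh38 and the tools featureCounts, HISAT2 2.1.0 and fastp 0.22.0 are named per the submitters' processing notes. The annotation release and strand setting were not given in the sources used here. The members and lists were chosen with earlier results of these data known.

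Counts were filtered with filterByExpr (14706 genes kept), scaled with TMM and fitted together in 1 model of the 12 libraries (R 4.3.3, edgeR 4.0.16, common dispersion 0.00203). Quasi-likelihood p-values were adjusted over all genes tested by Benjamini-Hochberg, and called means an adjusted value under 0.05. There were 5 contrasts: the knockdown in untreated cells and under palmitate, palmitate in each kind of cell, and their interaction. Changes are log2 ratios with an SE derived from the test. The steps were tested on simulated counts with known changes.

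Named members were, per comparison, the 6 largest called rises and falls (4 each way for the interaction), fixed members by role and the isoform groups, and some further list genes were chosen after their values were seen. The rule also named members most like COX5A across libraries; no such correlation is given, since the libraries fall into separate knockdown and control clusters. No 2 replicates of a group agreed within sampling noise. Alternatives were DESeq2 1.42.0 and its size factors, library sizes alone, upper quartile factors, no filter, only the groups compared, a replicate block, each library left out, and other member sets. Positions are from GENCODE 29, and older symbols were updated for 18 members. Values of some genes are not reported here.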

Additional observations from a re-analysis of the deposited data

Results flagged for a closer look

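The palmitate response differed between knockdown and control cells for 7 members by the interaction test of edgeR (adjusted p under 0.05), out of 78 tested. Over all 14706 genes 1052 were called higher and 1087 lower. The share called higher was 1.28% of members and 7.15% of all genes. The share called lower was 7.69% of members and 7.39% of all genes, so the count of negative calls is near the background. COX5A stood at 0.39 on the log2 scale, with a response of 0.44 in knockdown cells and 0.05 in control cells. Negative values were found for ATP5F1D (-0.25), ATP5MC2 (-0.22), COX7A2L (-0.22), CYC1 (-0.21), ATP5F1B (-0.17) and ATP5PB (-0.13). COX5A, ATP5MC2, CYC1 and ATP5F1B kept the call under every alternative tried, and ATP5F1D, COX7A2L and ATP5PB did not. In all, 14 of 78 members had an unadjusted p under 0.05 for the interaction, beside 4046 of 14706 genes.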

How the results depend on the processing

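With the knockdown, 42 to 50 members were higher and 6 lower in untreated cells when each library was left out in turn, and 31 to 42 higher and 4 to 6 lower under palmitate. No direction reversed for a called member in any alternative. With palmitate in control cells the counts were 12 to 21 higher and 0 lower over left-out libraries (12 without shControl replicate 1 or shControl+PA replicate 3), and 9 higher and 2 lower with library sizes alone. With palmitate in knockdown cells they were 2 to 9 higher and 0 to 1 lower over left-out libraries. The single fall was lost without shACSL5 replicate 1, shACSL5+PA replicate 1 or shACSL5+PA replicate 2. In that comparison library sizes alone and upper quartile factors each gave 4 higher and 2 lower, and a fit of the 2 groups alone gave 5 higher. The interaction gave 1 higher and 3 to 6 lower, with 3 without shControl replicate 3. The cause was not tested.

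Same-numbered libraries of different groups did not deviate together (correlations from -0.042 to 0.08), so the replicate numbers were not taken as pairs. With a replicate block the counts were 47 higher and 6 lower with the knockdown in untreated cells and 39 and 5 under palmitate. They were 20 and 0 with palmitate in control cells, 9 and 1 in knockdown cells, and 1 and 6 for the interaction. The row labelled UQCR11, at 0.54 (SE 0.24) with the knockdown in untreated cells, was not called but was called in 9 of 19 alternatives, and its libraries ranged from 17.6 to 40.5 CPM within shACSL5+PA.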
